A study of Homo sapiens with 8 samples.

Results

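ANKRD52 and UGT8 are the 2 genes of 11109 tested whose signal was called higher after knockdown of MMSET I in t(4;14) multiple myeloma cell lines. They were chosen by the knockdown contrast itself, as the genes with a mean above 0 and an adjusted p under 0.05 in limma (adjusted p = 0.0422 for each). The called share was therefore 0.0180% of tested genes for higher genes, against 0.0990% for lower genes and 0.117% in either direction, and these shares are read here only as a description. Without KMS11, KMS18, KMS34 or OPM2 in turn, 0 higher genes were called in limma (370 to 457 at an unadjusted p under 0.05), and the adjusted p of the 2 genes was 0.0961 to 0.265. The genes called lower were GLO1, POLR3G, CS, FBXO21, SELENOF, RRP1B, KLF9, KPNA6, BLOC1S6, MAP3K3 and 1 gene with a small RNA or LOC symbol. Each gene is represented by 1 row of an array table of 44629 rows, in which 14812 genes carry a name.

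The study used 4 established human myeloma lines, KMS11, KMS18, KMS34 and OPM2. Each was infected with lentivirus in 8 µg/mL polybrene and gave 1 control culture and 1 MMSET I knockdown culture (ShMI), 8 arrays in all. The protocol gives 48 h of culture after the virus was removed, while the design text of the series speaks of 72 h with shRNAs and of KMS11 alone. All lines carry t(4;14), a translocation that joins the immunoglobulin heavy chain locus to the region of NSD2 (MMSET), a histone H3 lysine 36 methyltransferase gene. MMSET I is a short isoform of it, and GLO1, the glyoxalase gene, is its target according to the title of the series. What the control virus carried and the shRNA sequence are not given in the sources used here, and each line has a single pair of cultures, so lines are the replicates (n = 4).

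ANKRD52 encodes an ankyrin repeat subunit of protein phosphatase 6 (PP6). The PP6 holoenzyme joins a catalytic subunit, a SAPS-domain subunit and an ankyrin repeat subunit, which can be ANKRD28, ANKRD44 or ANKRD52. The complex with ANKRD52 is known for removing phosphates that casein kinase 1 alpha places on Argonaute proteins, a cycle that sustains microRNA silencing. UGT8 encodes the ceramide galactosyltransferase of the endoplasmic reticulum, which moves galactose from UDP-galactose onto ceramide and so makes galactosylceramide. It is best known from oligodendrocytes and Schwann cells, where galactosylceramide and its sulfated form, sulfatide, are major lipids of myelin.

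The bases before the start sites of both genes are printed because the genes were higher together on every line. The RefSeq promoter table (GRCh38.p14) matched both of them, with 1 start site for ANKRD52 and several for UGT8, of which the first is shown. The ANKRD52 stretch is chr12:56258385-56258634 on the minus strand and the UGT8 stretch is chr4:114598152-114598401 on the plus strand, each 250 bases, 5′ to 3′ in the sense of the gene. Capitals mark GC boxes (GGGCGG on either strand) and the E-box CACGTG.
ANKRD52: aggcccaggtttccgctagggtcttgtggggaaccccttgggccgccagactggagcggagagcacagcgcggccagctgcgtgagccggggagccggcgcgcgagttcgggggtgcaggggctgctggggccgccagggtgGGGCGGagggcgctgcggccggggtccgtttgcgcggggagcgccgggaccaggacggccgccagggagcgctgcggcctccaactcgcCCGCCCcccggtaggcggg
UGT8: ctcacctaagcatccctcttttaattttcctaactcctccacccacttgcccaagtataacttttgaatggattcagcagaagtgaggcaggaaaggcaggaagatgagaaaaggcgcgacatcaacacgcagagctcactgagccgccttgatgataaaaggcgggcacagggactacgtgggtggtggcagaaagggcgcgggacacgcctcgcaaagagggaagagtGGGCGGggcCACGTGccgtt

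The ANKRD52 stretch has a GC content of 77.6% and 30 CpG dinucleotides, and the UGT8 stretch has 54.8% and 13. A GC box occurs 2 times before the ANKRD52 start and 1 time before the first UGT8 start, where it begins at base -20 and is followed by the E-box at base -11. The other UGT8 starts differ from it. The stretch before the second UGT8 start has 3 GC boxes, 30 CpG dinucleotides and a GC content of 73.2%, the one before the third has 1 GC box, 12 CpG dinucleotides and 59.2%, and neither holds the E-box. Of 35116 stretches of the same length in the table, 42.6% hold a GC box and 6.35% hold CACGTG. Both strands were searched, and the GC box and E-box before UGT8 do not overlap. TATAAA (10.7% of stretches), CCAAT (32.0%), TGACGTCA (1.65%), TGANTCA (6.57%) and TGATGNAAT (0.889%) have 0 matches in either printed stretch. These matches describe letters only.

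Before the members, the targeted gene and the lines were checked. The row of NSD2, which covers the gene as a whole and not the short isoform, was lower with the knockdown in 4 of 4 lines, from 680 to 814 in controls and from 549 to 728 in knockdown arrays (log2 difference -0.18, limma adjusted p = 0.472). GLO1 was lower in 4 of 4 lines (log2 difference -0.76, limma adjusted p = 0.00142). Of 12 plasma cell markers 9 had a named row. Their summed intensity was 8241 to 10985 in controls and 7944 to 11378 in knockdown arrays, most of it from SDC1, IRF4, XBP1, MZB1 and SLAMF7. POU2AF1 (70.7 to 88.4) and CD27 (56.2 to 86.6) lay not far above the brightness limit used here, an intensity of 46.7, and FCRL5 lay below it. CD38 read 50.6 and 83.2 in KMS11 and 168 to 416 in the other lines. Markers of T and NK cells (4 of 8 with a row) summed to 256 to 335 in controls and 288 to 344 in knockdown arrays. Myeloid markers (6 of 8) summed to 393 to 446 and 365 to 443, and stromal and endothelial markers (3 of 8) to 104 to 109 and 102 to 112.

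ANKRD52 had control intensities of 343 (KMS11), 199 (KMS18), 167.5 (KMS34) and 178 (OPM2). In the knockdown arrays the values were 506 (KMS11), 248 (KMS18), 208 (KMS34) and 283 (OPM2). Every line had the higher value in its knockdown array, but the groups overlap, because the lines start from different levels. KMS11 was the highest line under both conditions, and its control array lay above the knockdown arrays of the other 3 lines.

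Within a line the ANKRD52 signal was higher with the knockdown by 47.2% (KMS11), 24.8% (KMS18), 24.1% (KMS34) and 58.8% (OPM2). On the log2 scale the mean difference was 0.46 ± 0.18 (SD, n = 4 lines), a 1.38-fold rise, with the smallest value of 0.31 in KMS34 and the largest of 0.67 in OPM2. This was the largest mean difference above 0 among the 11109 genes. The arrays read whole cultures, so a change in every cell and a change in the share of cells with a high level cannot be told apart. In OPM2 it ranked 6th of all genes and in KMS11 41st, against 249th in KMS18 and 273rd in KMS34. Since the contrast chose the gene, no test is given for these values.

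UGT8 had control intensities of 296 (KMS11), 129.9 (KMS18), 398 (KMS34) and 43.2 (OPM2). With the knockdown it had 444 (KMS11), 163 (KMS18), 494 (KMS34) and 59.0 (OPM2). The knockdown array was again the higher in every line, and the groups overlap across almost the whole range. OPM2 stood far below the others, with a control value under the brightness limit of 46.7. Detection calls were not used here, so whether UGT8 is above background in OPM2 was not examined.

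The UGT8 signal was higher by 49.9% (KMS11), 25.8% (KMS18), 24.3% (KMS34) and 36.7% (OPM2). The mean log2 difference was 0.42 ± 0.13 (SD, n = 4 lines), a 1.34-fold rise, from 0.31 in KMS34 to 0.58 in KMS11. In intensity units the step was 148 in KMS11, 96.6 in KMS34, 33.5 in KMS18 and 15.8 in OPM2. The largest step was in KMS11, although KMS34 had the higher level, and the smallest was in OPM2, the line with the lowest level. UGT8 ranked 33rd of all genes in KMS11, 63rd in OPM2, 212th in KMS18 and 264th in KMS34.

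**Figure D1:**
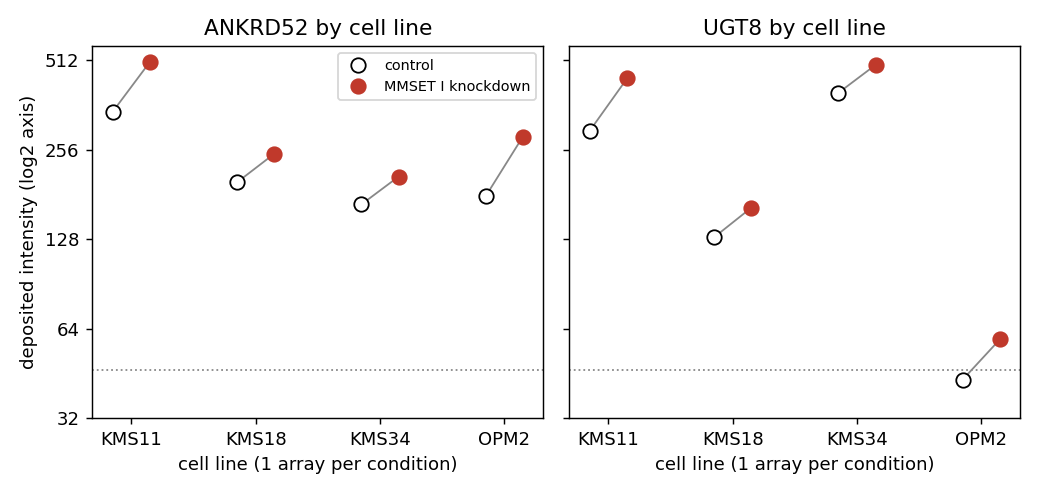
Deposited intensity of ANKRD52 (left) and UGT8 (right) in 4 myeloma lines, on a log2 axis, with an open circle for the control array and a red circle for the MMSET I knockdown array of each line; the dotted line is the brightness limit of 46.7. The red circle lies above the open one in every line, and UGT8 in OPM2 (43.2 and 59.0) lies near the limit.

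The differences of both genes were close to each other line by line. ANKRD52 minus UGT8 gave a log2 difference of -0.026 (KMS11), -0.011 (KMS18), -0.0020 (KMS34) and 0.22 (OPM2). They nearly coincided in KMS11, KMS18 and KMS34 and came apart in OPM2. Both genes had their smaller differences in KMS18 and KMS34 and their larger ones in KMS11 and OPM2. The distance between the 4 line differences was taken as a measure of likeness. By it UGT8 was the nearest of the compared genes to ANKRD52, and ANKRD52 the nearest to UGT8 (distance 0.22 on the log2 scale). Untested genes and those with small RNA or LOC symbols were left out of this and the later likeness lists. The selection of both genes on the same contrast favours such closeness, so it is a description.

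By the same measure, the next genes to ANKRD52 were the protocadherin gene PCDH18 (distance 0.25), the zinc finger gene ZNF235 (0.35), the cathepsin gene CTSO (0.35) and the zinc finger gene ZNF253 (0.36). The next to UGT8 were the receptor gene GPR37 (0.25), PCDH18 (0.25), the kynurenine monooxygenase gene KMO (0.26) and ACBD5, a peroxisomal acyl-CoA binding protein gene (0.27). None of these passed the threshold over all genes (smallest limma adjusted p = 0.0735, for PCDH18).

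PCDH18 was also the first gene with a mean above 0 just outside the threshold. Its control values were 100.2 (KMS11), 51.7 (KMS18), 103 (KMS34) and 145 (OPM2), and its knockdown values 128, 66.1, 124 and 210.2 in the same order. The next were the chemokine gene CCL3 (log2 difference 0.42, limma adjusted p = 0.109) and the carbonic anhydrase gene CA13 (0.35, 0.109). The tyrosine kinase gene YES1, picked after its value was seen, had the second largest mean difference, 0.43. It was called neither higher nor lower (limma adjusted p = 0.125), with only 0.079 in KMS18. ANKRD52 and UGT8 were the 2 genes that were at least 20% higher in each of the 4 lines, where 11 genes were at least 15% higher and 49 at least 10%. These limits were set after the values were seen. For UGT8 in OPM2 the rise rests on 43.2 in the control and 59.0 with the knockdown, near the brightness limit of 46.7.

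**Figure D2:**
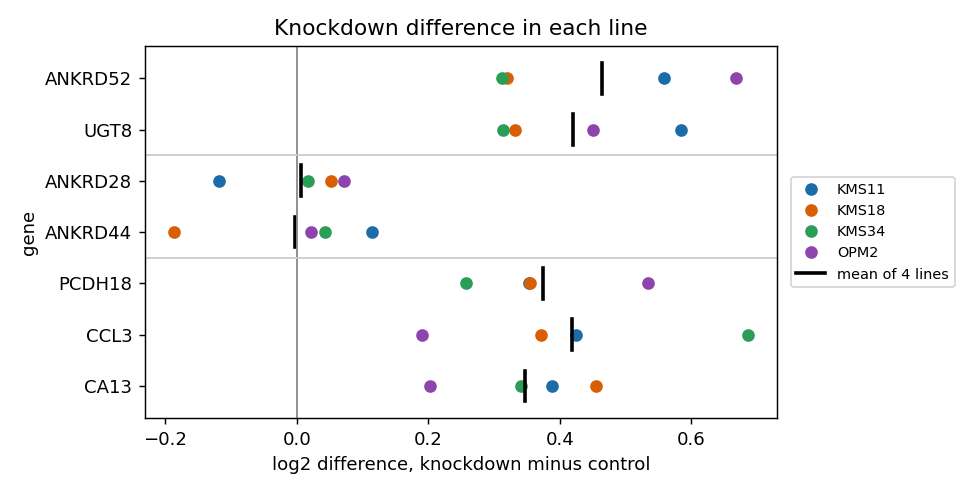
Log2 difference between knockdown and control in each line (coloured points) and its mean over 4 lines (black bar) for ANKRD52 and UGT8, the other ankyrin repeat subunits of PP6, and the next 3 genes outside the threshold among those with a mean above 0. Points of ANKRD52 and UGT8 lie between 0.31 and 0.67, while those of ANKRD28 and ANKRD44 lie on both sides of 0.

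Across lines the 2 genes were ordered differently. The ANKRD52 line mean on the log2 scale was 8.70 in KMS11, 7.81 in OPM2, 7.80 in KMS18 and 7.54 in KMS34, a range of 1.16. KMS11 was highest and KMS34 lowest under both conditions, while KMS18 was above OPM2 in controls and below it with the knockdown. The UGT8 line mean was 8.79 in KMS34, 8.50 in KMS11, 7.19 in KMS18 and 5.66 in OPM2. This order held under both conditions. With 1 array per line and condition, the spread within a line has no replicate of its own.

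The range of the UGT8 line means was 3.13 on the log2 scale, an 8.78-fold span, and 97 of the 11109 tested genes had a range at least as wide, UGT8 included. For ANKRD52, with a 2.23-fold span, 1551 genes did so. The median gene had a range of 0.52. The low end of the UGT8 range is the OPM2 line mean of 5.66, near the brightness limit (5.54 on the log2 scale). The next lowest UGT8 line mean was 7.19, in KMS18. No test between lines is given for either gene, because the residual spread of that test is the one that entered their selection.

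**Figure D3:**
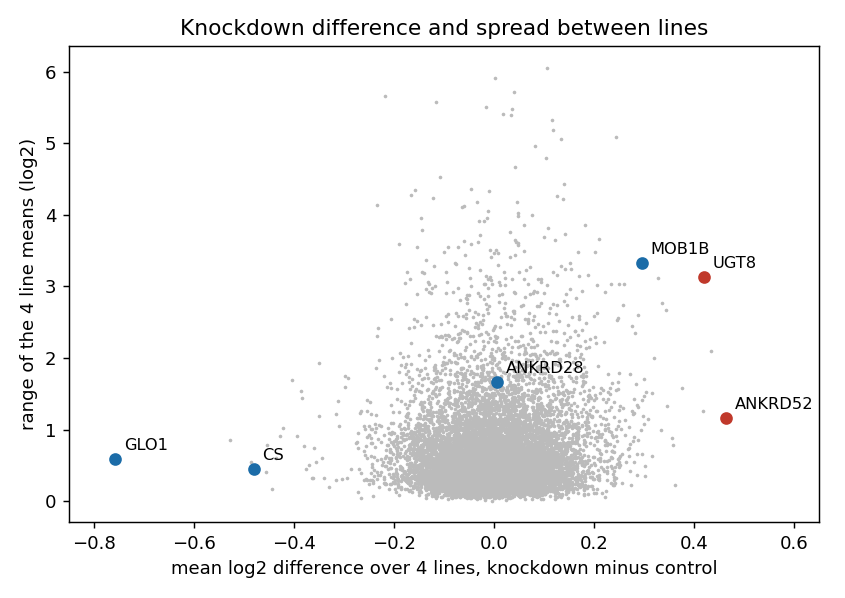
Mean log2 difference over 4 lines (horizontal) against the range of the 4 line means (vertical, log2) for 11109 tested genes (grey), with ANKRD52 and UGT8 in red and 4 other genes named in the text in blue. UGT8 (0.42 and 3.13) is far out on both axes, and ANKRD52 (0.46 and 1.16) is furthest to the right. The UGT8 range has its low end in OPM2, where the signal lies near the brightness limit.

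The genes whose log2 values followed each member most closely over the 8 arrays were different for the 2 members. For ANKRD52 they were the long noncoding RNA WAKMAR2 (Pearson's r 0.970), the dipeptidyl peptidase gene DPP9 (0.970), the kinase gene MAP3K2 (0.969), the centrosomal protein gene CEP68 (0.960) and the receptor gene SIRPA (0.960). Of these WAKMAR2 had the largest knockdown difference, 0.30 (limma adjusted p = 0.203). For UGT8 they were APOOL, a mitochondrial inner membrane protein gene (0.991), the oxysterol-binding protein gene OSBPL3 (0.988), ZNF582 (0.986), GPR108 (0.984) and ANKRD40 (0.984). APOOL had control values of 503 (KMS11), 257 (KMS18), 546 (KMS34) and 94.8 (OPM2), the same order of lines as UGT8. Between ANKRD52 and UGT8 r was 0.291. The 8 arrays are 4 pairs from the same lines, so these values mainly reflect levels by line and carry no p.

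For the other ankyrin repeat subunits of PP6 the lines did not all move one way. ANKRD28 had control values of 314 (KMS11), 593 (KMS18), 562 (KMS34) and 185 (OPM2), and knockdown values of 289.6, 614, 569 and 195. It was lower in KMS11 and higher in the other 3 lines, with a mean log2 difference of 0.0062 (SE 0.064, limma adjusted p = 0.987). ANKRD44 lay between 92.9 and 109.7 in controls and between 85.5 and 119 with the knockdown (log2 difference -0.0017, SE 0.068, limma adjusted p = 0.997). ANKRD28 differed between lines (limma F test, adjusted p = 1.96e-08), as did ANKRD44 (0.0334), in a table where 75.7% of genes did. KMS18 and KMS34 were the high lines for ANKRD28, and KMS11 was the high line for ANKRD52. The difference between subunits was not tested. The catalytic subunit PPP6C and the SAPS subunits PPP6R1, PPP6R2 and PPP6R3 have no named row and were not analysed here.

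Of the wider ankyrin repeat domain family, 52 other genes whose symbols begin with ANKRD had a named row and 35 were tested. Of these 18 had a mean above 0 and 17 below, from -0.20 to 0.18. In limma 0 passed the threshold, beside 0.117% of all tested genes. At an unadjusted p under 0.05 were 1 higher and 2 lower, against 4.26% and 4.15% of all genes. Their median difference was 0.0062, beside -0.0033 for all tested genes.

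PP6 acts on several regulators, and 7 of 13 listed substrates and partners were tested. Of these 0 passed the threshold in limma, beside 0.117% of all tested genes. At an unadjusted p under 0.05, 3 were higher and 0 lower, beside 4.26% and 4.15% of all tested genes. The median log2 difference of the 7 was 0.074, with 5 above 0 and 2 below. Higher in 4 of 4 lines were 4 genes, beside 8.29% of all tested genes. They were MOB1B and MOB1A, adaptors of the Hippo pathway kinases, TAB2, an adaptor of the kinase TAK1, and MAP3K7, which encodes TAK1 and is named after its value was seen. The list was chosen with earlier results of these data known, so nothing particular to it is read from the count. MAP3K7 in OPM2 was 481.5 on both arrays to the digits given.

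MOB1B had control values of 147 (KMS11), 64.7 (KMS18), 80.0 (KMS34) and 587 (OPM2), and knockdown values of 159, 68.8, 121 and 764. Its log2 difference was 0.30 (SE 0.085, limma adjusted p = 0.372), led by KMS34 at 0.60 and OPM2 at 0.38. TAB2 had a difference of 0.18 (0.481) and MOB1A one of 0.15 (0.593). AURKA, the mitotic kinase that PP6 dephosphorylates, had -0.46 (KMS11), -0.15 (KMS18), 0.20 (KMS34) and -0.12 (OPM2) (limma adjusted p = 0.729). TAB1 had a mean of -0.095 (0.755) and was lower in 4 of 4 lines, as were 8.76% of all tested genes.

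Genes of Argonaute function and microRNA silencing were measured in 9 of 19 cases. The Argonaute genes and CSNK1A1 have no named row and were not analysed. Of the 9, 0 passed the threshold in limma, beside 0.117% of all tested genes. At an unadjusted p under 0.05 were 1 higher and 1 lower, beside 4.26% and 4.15% of all tested genes. A mean above 0 was seen for 4 and one below for 5, and the median was -0.032. TNRC6C, a GW182 scaffold that binds Argonaute, had differences of 0.36 in KMS11 and 0.35 in OPM2 but -0.014 in KMS18 and 0.042 in KMS34 (mean 0.18, limma adjusted p = 0.578). KMS11 and OPM2 were also the lines with the larger ANKRD52 differences. A link between TNRC6C and ANKRD52 was not tested. TARBP2, a partner of Dicer, was lower in 4 of 4 lines (mean -0.17, 0.500). The translation repressors EIF4E2 (0.10) and GIGYF2 (0.094) were higher in 4 of 4 lines and missed the threshold. So 2 of the 9 were higher and 1 lower in 4 of 4 lines, beside 8.29% and 8.76% of all tested genes. TNRC6B had a mean of -0.11, and the exportin gene XPO5 one of -0.053.

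Among the related phosphatases PP2A and PP4, 3 of 26 listed genes had a row. PPME1 and LCMT1, which remove and add the methyl group of the catalytic subunits, had differences of 0.012 and -0.011. IGBP1, which binds free catalytic subunits, had -0.032. Each was higher in 2 lines and lower in the other 2. In limma 0 passed the threshold, beside 0.117% of all tested genes. At an unadjusted p under 0.05 there were also 0, beside 4.26% of all tested genes higher and 4.15% lower.

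UGT8 was the only gene of the galactolipid route that was called in limma, and it was chosen for that. Over all tested genes 0.117% were called. Of 8 other genes of the route that were tested, 3 had a mean above 0 and 5 below, with a median of -0.034. An unadjusted p under 0.05 was found for 1 (GALC, higher), beside 4.26% of all tested genes higher and 4.15% lower. GALC, the lysosomal enzyme that splits galactosylceramide again, was higher in 4 of 4 lines, as were 8.29% of all tested genes. Its control values were 97.1 (KMS11), 58.5 (KMS18), 71.4 (KMS34) and 68.9 (OPM2), and its knockdown values 134, 68.6, 75.5 and 74.5. The GALC groups overlap, and its difference of 0.22 (SE 0.074) missed the threshold (limma adjusted p = 0.448).

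GAL3ST1, the sulfotransferase that turns galactosylceramide into sulfatide, had control values of 66.6 to 78.3 and a difference of -0.076, lower in 3 lines and higher in OPM2 (limma adjusted p = 0.856). FA2H, which makes the hydroxylated fatty acids of these lipids, had -0.022 (0.965), and ARSA, the enzyme that removes the sulfate of sulfatide, had -0.070 (0.805). PSAP, the precursor of the saposins that help degrade these lipids, had 0.11 (0.708), with 2849 in KMS34 and 752 in KMS18 among controls. UDP-galactose supply was represented by GALT (-0.068), GALK1 (0.031) and UGP2 (-0.046), and none of these passed. The UDP-galactose transporter gene SLC35A2 was not analysed here.

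Ceramide, the acceptor of UGT8, is made through the ceramide synthases and drawn on by other enzymes. Of 9 tested genes of ceramide synthesis, 5 had a mean above 0 and 4 below (median 0.00068). In limma 0 passed, beside 0.117% of all tested genes. At an unadjusted p under 0.05 were 1 higher and 0 lower, beside 4.26% and 4.15% of all tested genes. CERS2, the synthase for very long acyl chains, had -0.0069, CERS6 0.055 and CERS3 -0.068. ORMDL1 and ORMDL3, which restrain the first step of sphingolipid synthesis, had 0.16 and 0.094 and were higher in 4 of 4 lines. Among all tested genes 8.29% were higher in 4 of 4 lines. ORMDL2, named after its value was seen, had 0.059 and was higher in 2 lines and lower in 2. KDSR, the reductase of the second step, had -0.089. The serine palmitoyltransferase and DEGS genes have no named row and were not analysed.

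Of 15 tested genes of other ceramide fates and breakdown, 9 had a mean above 0 and 6 below (median 0.0055). In limma 0 passed, beside 0.117% of all tested genes. UGCG, which attaches glucose to ceramide where UGT8 attaches galactose, had control values of 407 (KMS11), 206 (KMS18), 303 (KMS34) and 209.9 (OPM2) and a difference of 0.022 (SE 0.072, limma adjusted p = 0.958), higher in 2 lines and lower in 2. The ceramide kinase gene CERK had 0.23 (0.420), the sphingosine phosphate lyase gene SGPL1 had 0.21 (0.440) and the acid ceramidase gene ASAH1 had 0.16 (0.577), each higher in 4 of 4 lines. The sphingosine kinase gene SPHK1 had -0.21 and was lower in 3 lines. The neutral ceramidase gene ASAH2 had -0.16 and was lower in 4 of 4 lines, and the ceramidase gene ACER2 had -0.13. ASAH2 read 49.0 to 66.4 in controls and 45.5 to 64.3 with the knockdown, near the brightness limit of 46.7. At an unadjusted p under 0.05 were 3 higher and 2 lower genes of the 15, beside 4.26% and 4.15% of all tested genes. Higher in 4 of 4 lines were 3 of the 15, beside 8.29% of all tested genes, and lower was 1, beside 8.76%. The UDP-glucuronosyltransferases, relatives of UGT8 in sequence, have 0 of 20 named rows.

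**Figure D4:**
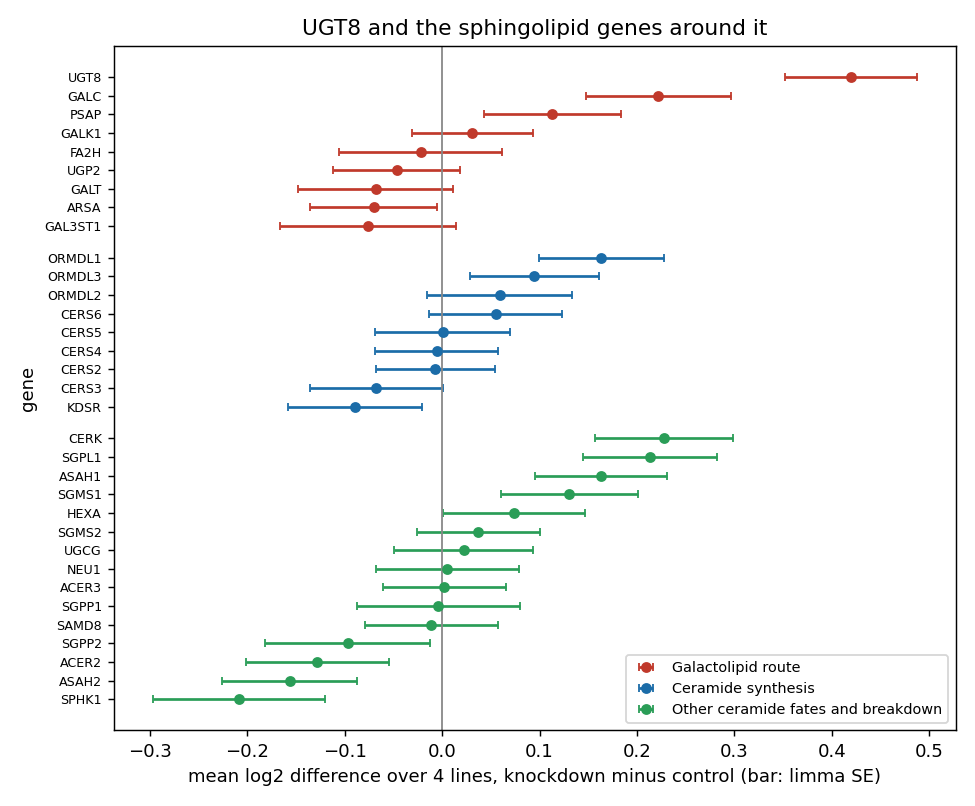
Mean log2 difference over 4 lines with limma's standard error for the tested genes of the galactolipid route (red), ceramide synthesis (blue) and other ceramide fates and breakdown (green). UGT8 at 0.42, which was chosen on this contrast, stands apart from all others, which lie between -0.21 and 0.23.

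Of 14 myelin and oligodendrocyte genes, the setting in which UGT8 is best known, 10 had a row and 9 passed the brightness limit. Their summed intensity was 705 to 949 in controls and 710 to 943 with the knockdown. Per gene this was 70.5 to 94.9 and 71.0 to 94.3. Among controls, T and NK markers had 63.9 to 83.7 per gene, myeloid markers 65.4 to 74.3, and stromal and endothelial markers 34.8 to 36.3. NKX6-2, an oligodendrocyte transcription factor gene picked after its values were seen, read 129.5 to 181 in controls and 131.5 to 194 with the knockdown. OLIG1 read 141 and 175 in OPM2. Of the 9 tested, 5 had a mean above 0 and 4 below, from -0.11 for CLDN11 to 0.11 for OLIG1. In limma 0 passed, beside 0.117% of all tested genes. At an unadjusted p under 0.05 there were also 0, beside 4.26% of all tested genes higher and 4.15% lower. MBP had 0.033, SOX10 0.034, OLIG2 -0.084 and OPALIN -0.074. The cultures are established myeloma lines, so these rows are given only as levels beside that of UGT8. A link between them and UGT8 was not tested.

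The genes next to each member were compared with it. On chromosome 12, 9 of the 16 nearest protein-coding genes around ANKRD52 were tested. They had 1 mean above 0 and 8 below, with a median of -0.042, beside -0.0033 for all tested genes. At an unadjusted p under 0.05 were 0 higher and 2 lower, beside 4.26% and 4.15% of all tested genes. In limma 1 was called lower, beside 0.0990% of all tested genes. CS, the citrate synthase gene and the second protein-coding gene after ANKRD52 in the GRCh38.p14 order, fell with the knockdown. Its control values were 704 (KMS11), 671 (KMS18), 915 (KMS34) and 759 (OPM2), and its knockdown values 505, 488, 663 and 528. The groups do not overlap, since the highest knockdown value is 663 and the lowest control value 671. The log2 difference was -0.48 (SE 0.060, limma adjusted p = 0.0147), while ANKRD52 was 0.46 higher. This call was lost without KMS11 (limma adjusted p = 0.0502), without KMS18 (0.0973), without KMS34 (0.0961) and without OPM2 (0.172), with differences of -0.49 to -0.47.

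COQ10A, a coenzyme Q binding protein gene that lies between ANKRD52 and CS, had 0.058 (KMS11), 0.15 (KMS18), -0.31 (KMS34) and 0.0017 (OPM2) (mean -0.025, limma adjusted p = 0.958). NABP2, on the other side, encodes a single-strand DNA binding protein and had a mean of -0.21 (0.447), lower in 4 of 4 lines. TIMELESS, a replication fork gene, was also lower in 4 of 4 lines (-0.10, 0.691), so that 3 of 9 neighbours were, beside 8.76% of all genes. RNF41 had 0.063, ESYT1 -0.042, CNPY2 -0.022, PAN2 -0.076 and APOF -0.012. In each line ANKRD52 had the highest difference of these genes, which its selection on the same contrast favours.

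On chromosome 4, 10 of the 16 nearest protein-coding genes around UGT8 had a row and 5 passed the brightness limit. CAMK2D, a calcium/calmodulin-dependent kinase gene, was higher in 4 of 4 lines with a mean of 0.10 (limma adjusted p = 0.720). ZGRF1, a DNA repair helicase gene, was lower in 4 of 4 lines with a mean of -0.19 (0.543). TIFA had a mean of 0.095, with 0.53 in OPM2 that exceeded the UGT8 difference there, NEUROG2 had -0.067 and METTL14 -0.025. None of the 5 passed the threshold in limma, beside 0.117% of all tested genes. An unadjusted p under 0.05 was found for 1 (ZGRF1, lower), beside 4.26% of all tested genes higher and 4.15% lower. In 4 of 4 lines 1 of the 5 was higher and 1 lower, beside 8.29% and 8.76% of all tested genes. NDST4, TRAM1L1, NDST3, SYNPO2 and MYOZ2 were left out as too dim.

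The microRNA gene MIR577 lies within UGT8 in the reference table and has a row of its own. It was singled out after the table was seen. Its mature sequence (chr4:114656774-114656794, plus strand, GRCh38.p14, RefSeq) is given with the seed, bases 2 to 8, in capitals, since the host gene was higher.
hsa-miR-577: uAGAUAAAauauugguaccug
The MIR577 row read 34.5 (KMS11), 35.9 (KMS18), 36.5 (KMS34) and 38.2 (OPM2) in controls, and 35.9, 36.8, 37.2 and 41.9 with the knockdown. All 8 values lie below the brightness limit of 46.7, so the row was not tested.

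**Figure D5:**
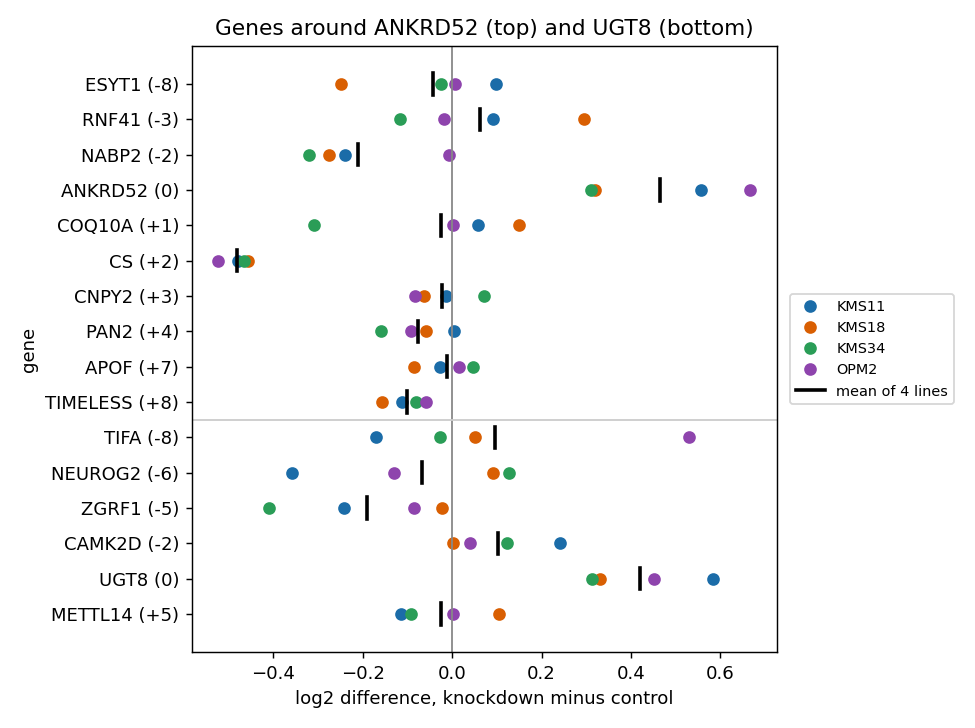
Log2 difference between knockdown and control in each line (coloured points) and its mean (black bar) for the tested genes among the 8 nearest protein-coding genes on each side of ANKRD52 (top) and UGT8 (bottom), in genome order; the number after a gene is its place counted from the member. ANKRD52 (0.46) and CS (-0.48), 2 places apart, lie on opposite sides of 0, and the means of the other neighbours lie between -0.21 and 0.10.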

How the data were processed

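The authors deposited linear intensity values, 1 per transcript cluster and array (Affymetrix Human Gene 2.0 ST, 1 colour), analysed in GeneSpring per the series text in the labels. Background correction, summarization and normalization are not given in the sources used here. The 75th percentile was 107.6 to 109.3 on the 8 arrays, and a scaling to a common level, if one was made, would hide a shift of all genes.

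Log2 of the intensities was taken. Of 44629 rows 15835 carry 1 gene symbol in the platform annotation and 0 carry several. The other 28794 are unnamed here. The brightest row stood for each of 14812 genes, and genes with a mean under the 25th percentile were left out, which left 11109. The named genes cover 11911 of 20056 protein-coding genes.

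The knockdown was fitted over all genes by lmFit and eBayes of limma 3.58.1 (R 4.3.3), with cell line as a block and Benjamini-Hochberg adjustment. Lines were tested with the moderated F test of the same fit. The fit was tested on simulated data. The line pairs the arrays: across genes, deviations from the group mean of the 2 arrays of a line correlated at 0.925 to 0.932, and those of arrays of different lines at -0.135 or less. The number of arrays limits precision. Each knockdown p-value rests on the spread between 4 culture pairs, which eBayes moderates with the spread of all tested genes. The F test between lines uses the same moderated residual spread, with the 2 arrays of a line standing for that line.

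The members and lists were chosen with earlier results of these data known. Genes were named by a rule: all of the PP6, galactolipid and neighbour lists, up to 3 per direction of the other lists by p, the 5 most like each member, and those at the threshold. Quantile normalization, centring, other filters, mean rows, leaving out each line, no block, eBayes with trend and robust, and all rows were tried as alternatives.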

Additional observations from a re-analysis of the deposited data

Results flagged for a closer look

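In 3 of 102 groups of 4 values checked, 1 line stood far from the other 3. Chance alone gives about 1 in 20. ORMDL3 had a knockdown log2 difference of 0.2601 in KMS18, against 0.024 to 0.058 in the other lines. TAB1 had -0.3068 in KMS34, against -0.044 to -0.012. ZNF582, whose levels follow UGT8 over the arrays, had 0.1845 in KMS11, against -0.0057 to 0.021. The intensities and differences of ANKRD52 and UGT8 held no such value.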

How the results depend on the processing

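ANKRD52 and UGT8 stayed above 0 in every alternative run. Both were chosen for a rise and were higher in every line, so leaving out a line could not change that. Other filters, mean rows, no block, trend and robust, and all rows do not alter the mean difference of a gene with 1 row. Leaving out a line moved the ANKRD52 difference between 0.40 and 0.52 and that of UGT8 between 0.37 and 0.46, and quantile normalization gave 0.48 and 0.44. The count of higher genes, 2 in the main setting, was 0 without a brightness filter, 0 without a replicate block for the line pairing, 0 over all rows and 0 with arrays centred on the median of the tested genes, an alternative chosen after seeing the data. It was 4 with the filter at the 50th percentile and 6 with trend and robust. Without any 1 line it was 0 to 0. The count of lower genes, 11, became 4 without a filter, 0 without the block, 23 with trend and robust, 1 over all rows, 7 with that centring, and 1 to 2 without 1 line. The 1 called list gene, CS, was lost (0) without the block and over all rows, and leaving out a line gave 0 to 0. Genes that differ between lines numbered 8412 and 17968 over all rows, of which more were tested; without the block this test could not be run. All counts are from limma. Where 0 genes were called higher, the number at an unadjusted p under 0.05 was 587 without a filter, 2 without the block, 1131 over all rows, 397 with the centring on tested genes and 370 to 457 without 1 line. The cause of these changes was not tested. UGT8 in OPM2 is limited by its signal near the brightness limit.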

Other observations

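Besides ANKRD52 and UGT8, 9 genes were at least 1.15-fold higher in each of the 4 lines, a limit set after the values were seen. None passed the threshold in limma over all genes. PCDH18 and CA13 are described above. The other 7 include TMED4, a cargo receptor of vesicle transport (log2 difference 0.27, limma adjusted p = 0.234), OSTC, a subunit of the oligosaccharyltransferase (0.26, 0.257), and RNF170, a ubiquitin ligase of the endoplasmic reticulum (0.25, 0.257). MAP3K5, which encodes the stress kinase ASK1, had control values of 287 (KMS11), 481 (KMS18), 172 (KMS34) and 287 (OPM2) and a difference of 0.28 (0.203). ACBD5 had 0.31, KIAA1191 0.28 and the zinc finger gene ZNF175 0.32 (each 0.203). The smallest line difference among these 7 genes was 0.20, for OSTC and TMED4 in KMS34.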
